A study of Mus musculus with 8 samples.

Results

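The genes described here encode subunits of the mitochondrial respiratory chain and of ATP synthase that are transcribed in the nucleus. They were chosen by gene symbol alone: Nduf genes of the a, b, c, s and v series, Sdha to Sdhd, all Uqcr genes, Cox4 to Cox8 genes, and Atp5 genes followed by a letter, without symbols that end in -ps and a number. This rule matched 86 of the 46078 genes in the count table. Of the 86, 84 had at least 1 read in some library and 83 passed the filter on low counts and were tested. The 3 genes that were not tested were Cox8b and a second entry named Uqcrc1 (ENSMUSG00000107235), which had no reads in any library, and Cox7b2. The rule also matched Atp5s and Atp5sl, which are not subunits of the enzyme, and Atp5l2-ps. These 3 were kept and were counted apart from the complexes.

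The respiratory chain passes electrons from NADH through complex I and from succinate through complex II to coenzyme Q, then through complex III and cytochrome c to oxygen at complex IV. Complexes I, III and IV pump protons out of the mitochondrial matrix, and ATP synthase (complex V) uses their return to make ATP. Most subunits are encoded in the nucleus, and a small set in complexes I, III, IV and V is encoded by mitochondrial DNA. Oocytes hold a large store of mitochondria and depend on oxidative metabolism of pyruvate, and growing oocytes stockpile long-lived mRNAs for use after transcription stops.

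The CCR4-NOT complex shortens the poly(A) tails of mRNAs, and CNOT7 and CNOT8 are its alternative deadenylases of the same family. RNA of germinal vesicle (GV) stage oocytes was sequenced in 4 libraries of CNOT7&8 KO oocytes (Cnot7 fl/fl and Cnot8 fl/fl with Zp3-Cre) and 4 libraries of Zp3-Cre control oocytes, so that the controls also carried the recombinase. Zp3-Cre is expressed in growing oocytes, and each library pooled 100 oocytes. The females were 4 weeks old, of C57BL/6J background, and their oocytes were collected 48 h after injection of PMSG, a hormone that stimulates follicle growth. The labels give each library as a sample of its own but do not say which animals it came from, so p-values measure the spread between these libraries.

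Counts per library summed to between 8639444 and 44092144, with control replicate 1 the deepest and KO replicate 1 the shallowest, and 3 counts corresponded to between 0.0802 and 0.326 CPM after scaling. These floors cover counting error only. Cnot8 fell from 167.7 ± 20.003 CPM in control to 35.2 ± 1.40 CPM in KO oocytes (SD, n = 4 each). Cnot7 fell from 933.0 ± 77.3 to 719.0 ± 70.8 CPM, and neither gene had overlap between the groups. The counts are per gene and do not resolve exons. In the paper an immunoblot showed both proteins to be absent from KO oocytes. Of 10 oocyte markers 5 were lower and 1 was higher in KO, with sums of 18133 to 21115 CPM in control and 14973 to 17362 CPM in KO. Over all tested genes 24.1% were lower and 31.2% were higher at the threshold given below. Of 12 granulosa and cumulus markers tested, 5 were higher and 1 was lower in KO, with sums of 128.8 to 174.2 CPM in control and 213.3 to 268.1 CPM in KO, and those higher were Inha (3.77-fold), Fshr (2.95-fold), Kitl (2.70-fold), Inhba (2.18-fold) and Nr5a2 (2.15-fold). Cyp19a1 was lower, and Foxl2, which defines granulosa cells, had at most 3 counts in any library. The 7 theca and stroma markers summed to between 4.08 and 8.88 CPM in control and between 6.29 and 7.80 CPM in KO. The erythroid genes Hbb-bs, Hba-a1 and Alas2 had at most 3 counts in any library, and Ptprc, a leukocyte marker, was higher in KO at 0.62 against 0.12 CPM. The part of other cells in the results below was not tested.

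Control replicate 1 and KO replicate 4 stood apart from the other libraries of their groups in many of the members, and results that rest on them are given with and without them. In control replicate 1, 64 of the 83 members lay below the mean of the other 3 controls and 19 above it, and 17 lay at least 2-fold below. Of those 17, 16 also lay below the other KO libraries in KO replicate 4. Ndufb7, a complex I accessory subunit, measured 7.06 CPM in control replicate 1 against 37.8, 33.9 and 28.6 CPM in the other controls, and 3.71 CPM in KO replicate 4 against 12.1, 10.8 and 21.3 CPM in the other KO libraries. Uqcr11, a small subunit of complex III, measured 17.8 CPM against 73.2, 72.5 and 63.4 CPM, and 11.7 CPM against 35.7, 30.9 and 44.3 CPM. Sdha moved the other way in control replicate 1, at 161.6 CPM against 119.7, 88.8 and 103.2 CPM. Across the 83 members the deviation of either library went with the GC content of the transcript, with Spearman's rho of -0.59 in both, and the deviations of the 2 libraries went together with a rho of 0.86. These are descriptions across genes of the same libraries, and over the 19126 tested genes with a GC content the rho with it was -0.47 and -0.41. Among the 8708 of these genes with at least 10 CPM, the level of most members, it was -0.62 and -0.58, and the deviations of the 2 libraries went together with a rho of 0.80, near the values of the members. The part of GC content in the differences between the groups was not tested.

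**Figure D1:**
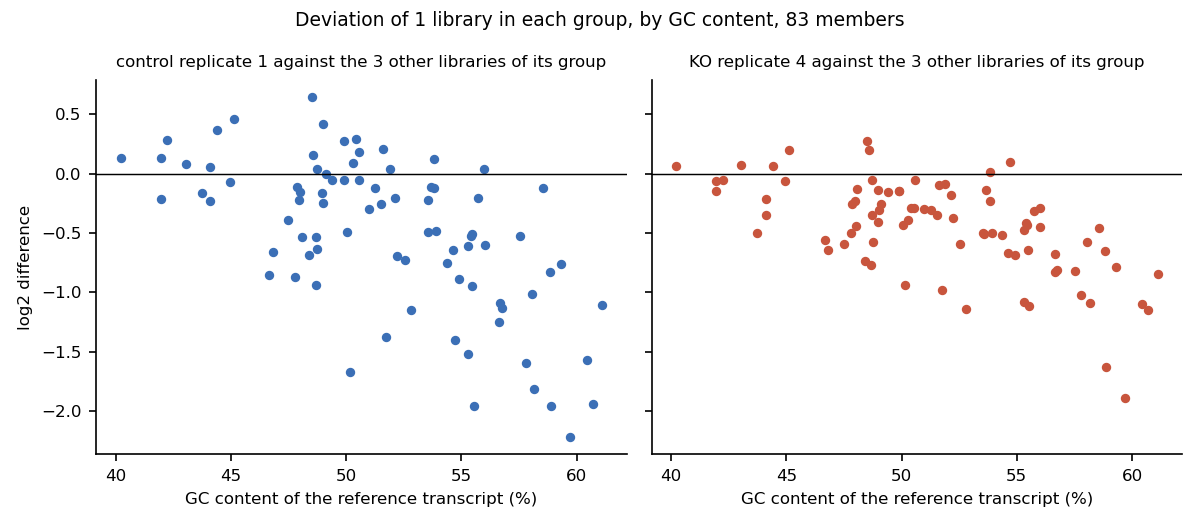
Each point is 1 of the 83 members tested, with the GC content of its reference transcript on the horizontal axis (%) and, on the vertical axis, the log2 difference of control replicate 1 (left) or KO replicate 4 (right) from the mean of the other 3 libraries of its group. Members of high GC content lie lowest in both libraries, and 64 members lie below 0 in control replicate 1 and 75 in KO replicate 4.

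Most of the members were slightly lower in CNOT7&8 KO oocytes. At a false discovery rate (FDR) of 0.05 in edgeR's quasi-likelihood test over all tested genes, 47 of 83 members (56.6%) were lower in KO, where 24.1% of all 19241 tested genes were lower. Only 4 members (4.82%) were higher, where 31.2% of all genes were higher. The median log2 fold change of the 83 members was -0.50, and that of all tested genes was 0.12. Few of the differences reached 2-fold: 2 members were downregulated at an FDR of 0.05 and at least 2-fold, Atp5e and Ndufv1, where 6.56% of all genes were, and 4 were upregulated, Uqcrc1, Cox8c, Ndufa4l2 and Cox7a1, where 23.8% of all genes were. The downregulated count was 13 without control replicate 1, 8 without KO replicate 3, and 1 without control replicate 2, 3 or 4 or KO replicate 4. In 35 members (42.2%) every KO library lay below every control library, against 21.4% of all genes, and in 4 members every KO library lay above, against 27.0%.

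The members are abundant transcripts, and abundant transcripts as a whole were lower in KO. Of the 76 members with a mean of at least 10 CPM, 46 (60.5%) were lower and 1 was higher, where 41.9% of the 8726 genes at that level were lower and 20.9% were higher. The median log2 fold change at that level was -0.54 for the members and -0.26 for all genes. Of the 7 tested members under 10 CPM, 3 were upregulated, where 35.6% of genes under 10 CPM were. Without control replicate 1 and KO replicate 4, 61 members were lower and 5 were higher, against 26.3% and 31.8% of all genes in that fit.

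The number of lower members depended on the scaling of the libraries. TMM, which sets most genes as unchanged, gave factors of 0.849 to 0.943 in control and of 1.07 to 1.14 in KO libraries. Scaled by library size alone, the median log2 fold change of all tested genes moved from 0.12 to 0.41 and that of the members from -0.50 to -0.21. The distance of the members below all genes was 0.61 log2 units under both scalings. A change of scaling moves all genes by nearly the same amount, so this distance could hardly change with it. It did change with the genes tested: with a filter of 1 CPM in 4 libraries the members' median minus that of all genes was -0.43. With library size alone 12 members were lower and 6 higher, and the lower share of member calls was 66.7% against 92.2% with TMM scaling. The 12 lower members are 14.5% of the members, near the 13.6% of all genes that were lower with library size alone, where 40.2% of all genes were higher. Of the calls over all genes 25.3% were lower with library size alone and 43.6% with TMM scaling. With TMM on genes of at least 10 CPM, 20.5% of the members and 14.9% of all genes were lower. All of these values are relative to the other transcripts of the same library. As in any bulk sample, fewer cells of a type and less RNA per cell cannot be told apart.

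**Figure D2:**
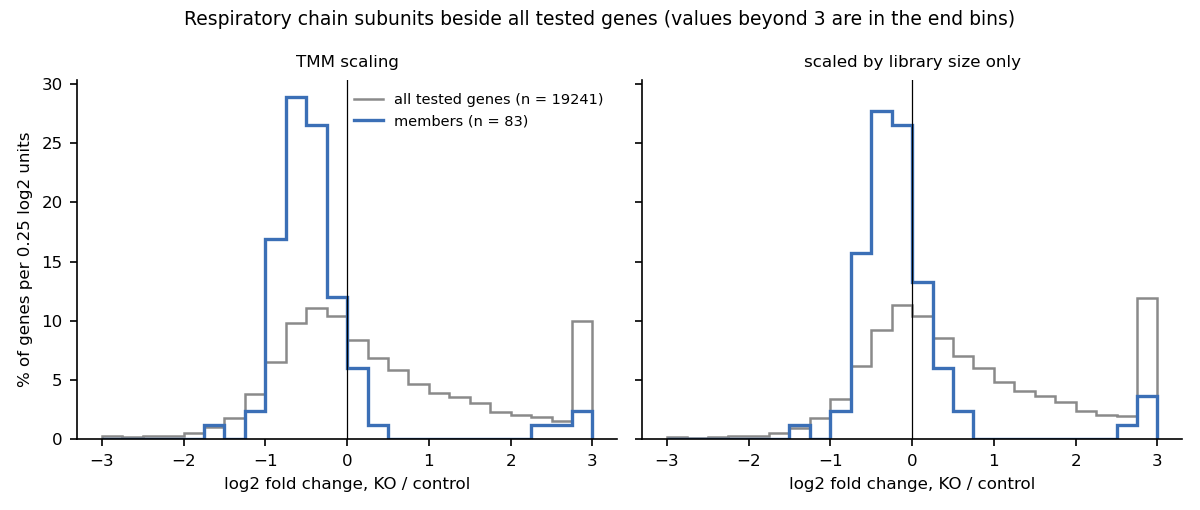
Share of genes (%) in each bin of 0.25 log2 units of the fold change, with all values beyond 3 in the end bins, for the 83 members (blue) and all 19241 tested genes (grey), with TMM scaling (left) and library size only (right). The members form a narrow peak below that of all genes in both panels, with a median of -0.50 (TMM) or -0.21 (library size only), and the 4 upregulated members lie far to the right.

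The members summed to 5462, 6514, 6900 and 6629 CPM in the 4 control libraries and to 4641, 4794, 4722 and 3764 CPM in the 4 KO libraries. The groups did not overlap, and the KO mean was 70.3% of the control mean, or 70.6% without control replicate 1 and KO replicate 4. Scaled by library size only, the KO mean was 85.2% of the control mean and the groups overlapped, with 4635 CPM in control replicate 1 and 5389 CPM in KO replicate 3.

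**Figure D3:**
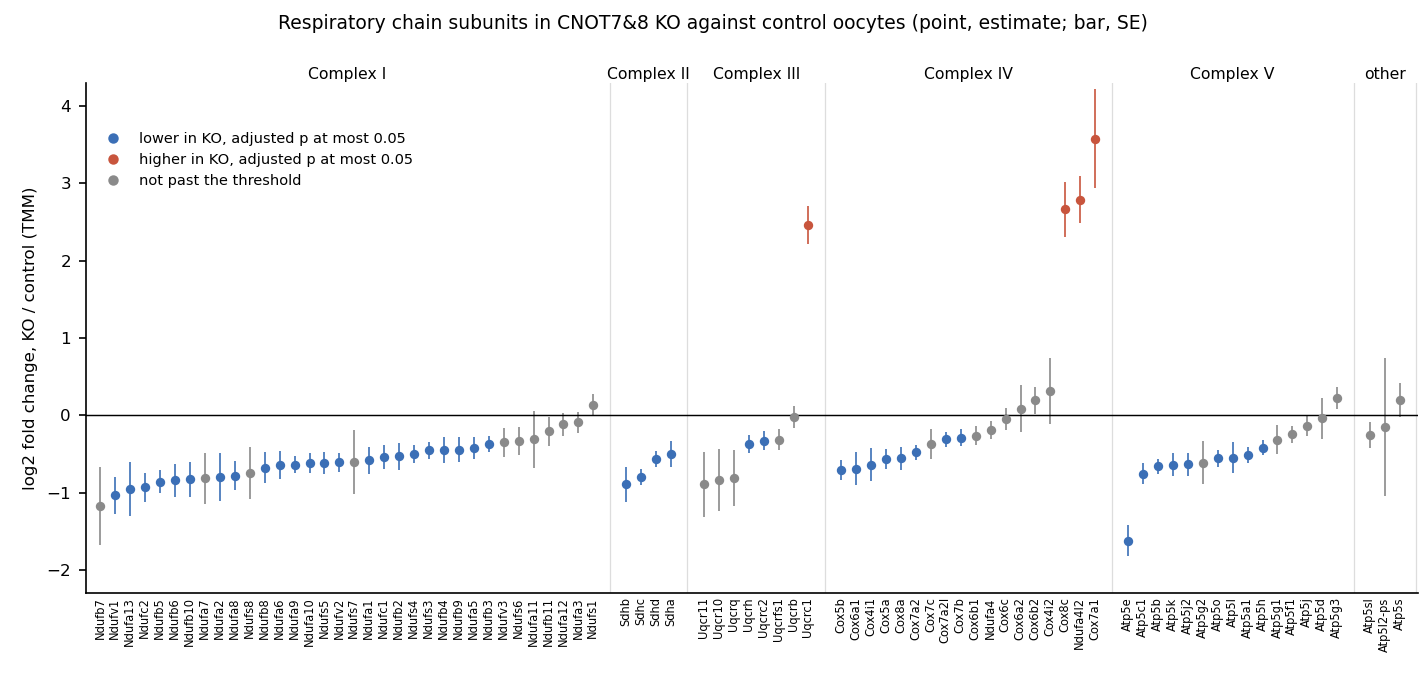
Log2 fold change of KO against control (vertical axis, TMM scaling) for 82 of the 83 tested members, ordered within complexes I to V and the 3 matched genes outside them; bars are SE. Blue points (46) were lower and red points (4) higher at an FDR of 0.05, and grey points did not pass.

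Complex I, the NADH dehydrogenase and the entry point for most electrons, had 35 members, with a median log2 fold change of -0.60. Of these 24 were lower and 11 did not pass, where 24.1% of all genes and 41.9% of genes of at least 10 CPM were lower. The number that was higher was 0 in edgeR's quasi-likelihood test, also at an unadjusted p of 0.05, with edgeR's exact test and with DESeq2. With library size only 5 were lower, where 13.6% of all genes were, 1 was higher and 31 of 35 estimates were negative, against 34 of 35 with TMM scaling. Ndufv1 carries the flavin site that takes electrons from NADH. It measured 57.5, 124.9, 121.8 and 121.0 CPM in control and 57.8, 50.9, 63.8 and 35.7 CPM in KO. Control replicate 1 fell among the KO values, and the other 3 controls lay above all of them. The log2 fold change was -1.03 ± 0.24 (SE; edgeR adjusted p = 0.00318), and -1.09 without control replicate 1 and KO replicate 4.

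The other subunits of the electron-input arm did not move as one. Ndufs1, the large iron-sulfur subunit of the same module as Ndufv1, measured 57.5, 39.6, 41.2 and 44.5 CPM in control and 48.5, 52.8, 44.4 and 55.7 CPM in KO, and the groups overlapped. Its log2 fold change was 0.14 ± 0.14 (edgeR adjusted p = 0.424), and it passed the threshold as higher when scaled by library size only. In the N module, which takes electrons from NADH, 2 of 3 core subunits were lower, in the Q module, which reduces coenzyme Q, 2 of 4 were, and of the 28 accessory subunits 20 were lower. Ndufa13, an accessory subunit, measured 11.8, 36.0, 37.8 and 31.8 CPM in control and 15.9, 15.4, 21.5 and 8.07 CPM in KO, so that control replicate 1 lay among the KO libraries. Its fall (log2 fold change -0.95, edgeR adjusted p = 0.034) did not pass in 10 of 18 alternatives, among them those without 1 of the other 3 controls or without KO replicate 1, 2 or 4. Ndufb11 had the highest level per length of complex I in control, 166.5 ± 38.2 FPKM, and 144.5 ± 29.2 FPKM in KO (edgeR adjusted p = 0.376).

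Complex II, succinate dehydrogenase, also a step of the citric acid cycle, is encoded entirely in the nucleus. All 4 of its subunits were lower, where 24.1% of all genes and 41.9% of genes of at least 10 CPM were. Sdhb, the iron-sulfur subunit, measured 27.0, 50.03, 47.1 and 53.3 CPM in control and 24.9, 28.0, 26.4 and 16.4 CPM in KO. Only control replicate 1 reached the KO range, and the log2 fold change was -0.89 ± 0.22 (edgeR adjusted p = 0.00468). The membrane anchors had the tightest libraries. Sdhc measured 98.8, 96.1, 95.5 and 96.9 CPM in control and 50.9, 59.8, 58.1 and 54.1 CPM in KO, a log2 fold change of -0.80 ± 0.10. Sdhd, the most abundant of the 4 per length, measured 181.9, 193.0, 186.1 and 186.9 CPM in control and 120.2, 141.0, 129.4 and 116.5 CPM in KO. Its log2 fold change was -0.56 ± 0.10 (edgeR adjusted p = 0.000513). Both anchors were separated from control in every library. Sdhb, Sdhc and Sdhd stayed lower when scaled by library size only, where 13.6% of all genes were lower. Sdha, the flavin subunit, measured 161.6, 119.7, 88.8 and 103.2 CPM in control and 75.0, 78.0, 86.3 and 96.7 CPM in KO, and the groups overlapped (log2 fold change -0.49, edgeR adjusted p = 0.0264). It did not pass with library size only (-0.20, edgeR adjusted p = 0.292), or without control replicate 1 or 2 or KO replicate 1 or 2.

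Complex III, which passes electrons from coenzyme Q to cytochrome c, had the single member above 10 CPM that rose. Uqcrc1, a core subunit at the matrix face, measured 4.06, 5.62, 6.94 and 5.24 CPM in control and 31.2, 28.5, 41.4 and 18.8 CPM in KO. The lowest KO library lay above the highest control library, and Uqcrc1 was 5.51-fold higher (log2 fold change 2.46 ± 0.25, edgeR adjusted p = 7.16e-06). Uqcrc2, its partner in the core, went the other way, from 258.0 ± 35.2 to 205.9 ± 20.9 CPM (log2 fold change -0.33, edgeR adjusted p = 0.037). This fall did not pass in 9 of 18 alternatives, among them library size only and those without control replicate 1 or 4 or KO replicate 1 or 3. Per length, Uqcrc1 stood at 3.31 ± 0.72 FPKM in control beside 136.1 ± 18.6 FPKM for Uqcrc2, and at 18.1 ± 5.61 beside 108.6 ± 11.001 FPKM in KO. The pair of core subunits thus stood far apart in level in both groups and less so in KO.

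The gene of Uqcrc1 lies at chr9:108936633-108949623 on the forward strand (GRCm38), and the count table holds a second entry of the same name without reads. A neighbor on the same strand, Col7a1, 3963 bases away, was under 1 CPM in both groups. Uqcrfs1, the Rieske iron-sulfur protein, measured 33.7, 29.5, 28.8 and 32.4 CPM in control and 21.3, 27.1, 24.1 and 27.6 CPM in KO, and the groups did not overlap, yet it did not pass the threshold (log2 fold change -0.31, edgeR adjusted p = 0.0602). Among the small subunits Uqcrh, the hinge protein that binds cytochrome c1, fell from 179.8 ± 20.5 to 139.6 ± 13.1 CPM (edgeR adjusted p = 0.0177) and 4 others did not pass. Uqcr10, Uqcr11 and Uqcrq had log2 fold changes of -0.81 to -0.89 with SE of 0.37 to 0.43, and all 3 were low in control replicate 1 and KO replicate 4.

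Complex IV, cytochrome c oxidase, has subunits that come in alternative isoforms, with a widely expressed form and others restricted to muscle, lung, testis or other tissues. The 12 widely expressed subunits all had negative estimates with TMM scaling. Of these 8 were lower, where 24.1% of all genes and 41.9% of genes of at least 10 CPM were. With library size only 9 of 12 were negative and 1 was lower, where 13.6% of all genes were lower. The 6 tested tissue-restricted isoforms all had positive estimates under both scalings, and 3 were upregulated. The 3 are members under 10 CPM, where 35.6% of all genes were upregulated and the median log2 fold change of all genes was 0.74. Cox4i1, Cox5a, Cox6a1, Cox7a2, Cox7a2l, Cox7b and Cox8a were among the 8 lower subunits, with log2 fold changes of -0.29 to -0.69. Cox7b passed here (edgeR adjusted p = 0.0422) but not in 16 of 18 alternatives, Cox7a2l did not pass without control replicate 3 or KO replicate 4, and Cox6a1 did not without KO replicate 4. Cox6c, which has no isoform in this set, measured 102.9, 144.8, 152.7 and 150.6 CPM in control and 136.6, 154.4, 133.0 and 110.8 CPM in KO, and did not differ beyond the spread (log2 fold change -0.04 ± 0.14). Cox7c, the most abundant subunit per length in control, stood at 289.1 ± 78.2 FPKM there and at 223.7 ± 39.5 FPKM in KO (edgeR adjusted p = 0.132), and it passed without control replicate 1.

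Cox5a, a matrix-side subunit that lies beside Cox4i1, measured 100.6, 72.3, 81.1 and 73.1 CPM in control and 57.2, 59.6, 53.8 and 51.6 CPM in KO. All KO libraries lay below all controls (log2 fold change -0.56 ± 0.13, edgeR adjusted p = 0.00291). Cox4i1, the subunit at which ATP inhibits the enzyme, measured 94.4, 193.2, 192.0 and 185.6 CPM in control and 108.3, 121.3, 119.8 and 77.9 CPM in KO. Control replicate 1 lay inside the KO range, and the other 3 controls lay above it. The log2 fold change of Cox4i1 was -0.64 ± 0.21 (edgeR adjusted p = 0.0241) and -0.71 without control replicate 1 and KO replicate 4. It did not pass in 8 of 18 alternatives, among them those without control replicate 2, 3 or 4 or KO replicate 1 or 4.

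The 3 isoforms that rose started from low levels. Cox7a1, the heart and skeletal muscle isoform of subunit 7a, had 1, 3, 1 and 11 counts in the control libraries and 26, 41, 42 and 80 in the KO libraries. That is 0.027 to 0.80 CPM in control, with control replicate 4 alone above 0.15, and 2.25 to 2.82 CPM in KO. The log2 fold change was 3.57 ± 0.64 (edgeR adjusted p = 0.000534), and 5.06 without control replicate 4. Of the controls only replicate 4 reached the 0.2 CPM of the filter, so Cox7a1 was tested through its KO libraries. Cox8c, the testis isoform of subunit 8, measured 0.32, 0.74, 0.82 and 0.58 CPM in control and 3.15, 5.05, 4.44 and 2.38 CPM in KO. It was 6.33-fold higher (log2 fold change 2.66 ± 0.36, edgeR adjusted p = 7.03e-05). Ndufa4l2, the hypoxia-induced paralog of the complex IV subunit Ndufa4, measured 0.62, 1.33, 1.09 and 0.95 CPM in control and 8.36, 6.31, 8.26 and 4.36 CPM in KO. It was 6.92-fold higher (log2 fold change 2.79 ± 0.31, edgeR adjusted p = 1.44e-05). In all 3 the groups did not overlap. Cox7b2, the testis isoform of subunit 7b, had no reads in control and 1, 1, 1 and 7 counts in KO, too few to be tested.

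The gene of Ndufa4l2 (chr10:127514967-127517154, forward strand) overlaps Shmt2 on the other strand, at 33.5 CPM in control and 27.2 CPM in KO (edgeR adjusted p = 0.305). Since the strand setting of the counting is not given in the sources used here, reads of the pair may not be fully separated. Cox7a1 lies at chr7:30184144-30186078 with Capns1, which was lower in KO, 858 bases away on the other strand.

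Despite their rise these isoforms stayed minor. In KO, Cox7a1 stood at 6.61 ± 0.63 FPKM beside 160.2 ± 7.30 for Cox7a2 and 123.4 ± 8.89 for Cox7a2l. Cox8c stood at 8.20 ± 2.64 FPKM beside 56.5 ± 9.76 for Cox8a, and Ndufa4l2 at 7.31 ± 2.03 FPKM beside 145.9 ± 14.2 for Ndufa4. The other restricted isoforms did not pass: Cox6a2 had 30.2 ± 9.94 FPKM in control and 32.1 ± 11.7 in KO, Cox6b2 had 28.8 ± 4.13 and 32.9 ± 7.60, and Cox4i2 had 1.096 ± 0.42 and 1.34 ± 0.48. Cox6a2 and Cox6b2 were thus already present in control at levels that the other restricted isoforms did not reach in KO. Levels per length rest on 1 reference transcript per gene and would change with another.

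**Figure D4:**
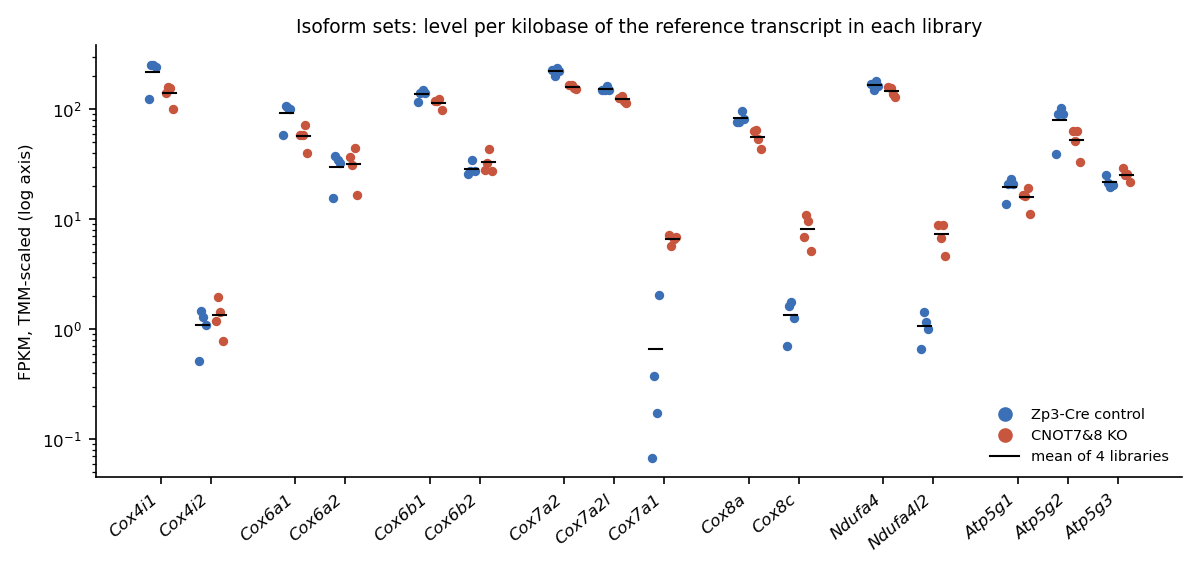
Level per kilobase of the reference transcript (FPKM, log axis) of alternative isoforms in each of 4 control (blue) and 4 KO (red) libraries; black lines are means. Cox7a1, Cox8c and Ndufa4l2 rise without overlap between the groups and stay below the widely expressed isoform of each set.

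In ATP synthase 9 of 15 subunits were lower and 6 did not pass, and the median log2 fold change was -0.55. With TMM scaling 24.1% of all genes and 41.9% of genes of at least 10 CPM were lower. With library size only 3 were lower, where 13.6% of all genes were, 1 was higher and 11 of 15 estimates were negative, against 14 of 15 with TMM scaling. Atp5e encodes the epsilon subunit of the central stalk and had the highest level per length of all members in control, 643.8 ± 129.8 FPKM. It measured 191.0, 284.7, 313.2 and 295.2 CPM in control and 101.1, 111.1, 80.6 and 61.0 CPM in KO. Every KO library lay below every control library, and Atp5e was 3.07-fold lower (log2 fold change -1.62 ± 0.20, edgeR adjusted p = 3.25e-05). The estimate ran from -1.76 to -1.35 over all alternatives. In KO its level per length was 210.1 ± 53.0 FPKM.

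The gene of Atp5e (chr2:174461072-174464105, reverse strand) has Prelid3b 962 bases away on the same strand. Prelid3b fell from 30.2 to 6.78 CPM (log2 fold change -2.16, edgeR adjusted p = 7.2e-07), and whether reads of these neighbors overlap was not tested.

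The catalytic subunits of ATP synthase fell less. Atp5a1 (alpha) measured 372.5, 392.8, 370.5 and 393.0 CPM in control and 295.5, 278.0, 269.5 and 230.5 CPM in KO, a log2 fold change of -0.51 ± 0.10 (edgeR adjusted p = 0.0012). Atp5b (beta) measured 293.3, 256.6, 250.7 and 253.3 CPM in control and 179.8, 170.1, 159.7 and 159.1 CPM in KO, a log2 fold change of -0.66 ± 0.10 (edgeR adjusted p = 0.000164). In both, all KO libraries lay below all controls. Atp5d, the delta subunit of the same stalk as Atp5e, stood at 12.6 ± 3.94 CPM in control and 12.2 ± 3.16 CPM in KO.

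The membrane ring of c subunits is encoded by Atp5g1, Atp5g2 and Atp5g3, which make the same mature protein. The number of the 3 that passed was 0 in edgeR's quasi-likelihood test, in its exact test and in DESeq2, and 1 was lower at an unadjusted p of 0.05 in each. Atp5g1 measured 64.7, 99.5, 109.0 and 99.2 CPM in control and 79.1, 77.0, 91.1 and 52.5 CPM in KO. Atp5g2 measured 28.9, 66.2, 74.8 and 66.3 CPM in control and 46.2, 38.0, 46.4 and 24.3 CPM in KO. Atp5g3 measured 17.99, 15.3, 14.01 and 14.7 CPM in control and 21.0, 17.9, 18.5 and 15.6 CPM in KO. In all 3 the groups overlapped, with negative estimates for Atp5g1 and Atp5g2 and a positive one for Atp5g3. Without control replicate 1 and KO replicate 4 all 3 passed, Atp5g1 (-0.31) and Atp5g2 (-0.67) as lower and Atp5g3 (0.37) as higher. Of the peripheral stalk 2 of 4 subunits were lower, and of the small membrane subunits Atp5j2, Atp5k and Atp5l all 3 were.

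**Figure D5:**
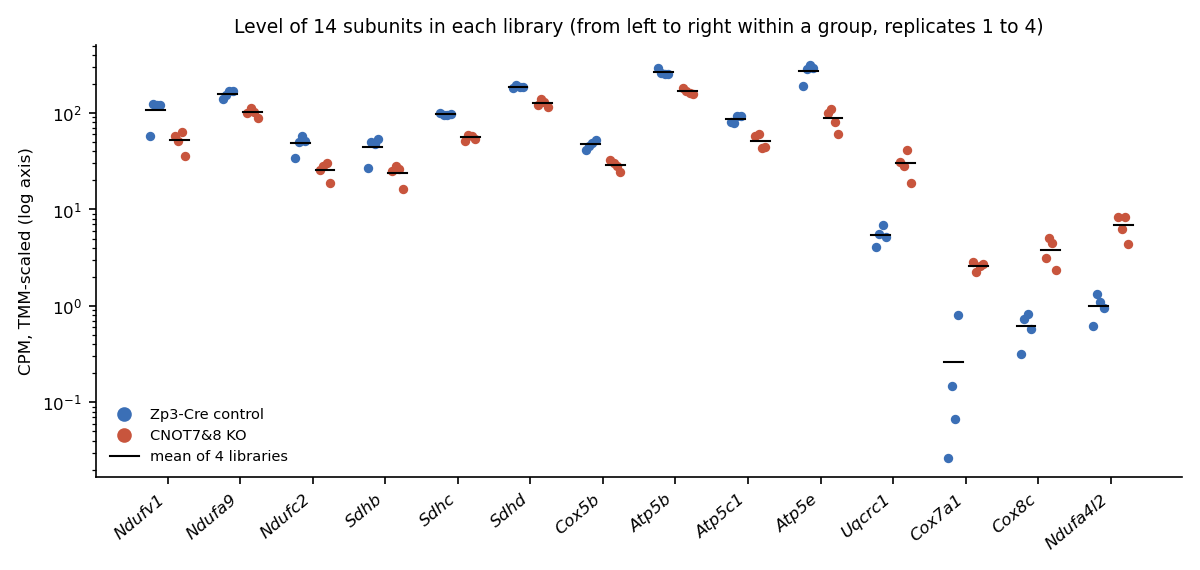
TMM-scaled level (CPM, log axis) of 14 members in each of 4 control (blue) and 4 KO (red) libraries, with replicates 1 to 4 from left to right and means as black lines. Atp5e falls furthest, Uqcrc1, Cox7a1, Cox8c and Ndufa4l2 rise without overlap, and control replicate 1 lies near the KO libraries in Ndufv1 and Sdhb.

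A set of 12 members was lower in all 19 fits, which used other tests, scalings and filters or left out libraries: Ndufa9, Ndufb5, Ndufc2, Ndufv1, Ndufv2, Sdhb, Sdhc, Sdhd, Cox5b, Atp5b, Atp5c1 and Atp5e. They were chosen after their values were seen. They are the same 12 members that were lower with library size only, 14.5% of the members where 13.6% of all genes were lower. They include at least 1 subunit of each complex except complex III. Uqcrc1, Cox7a1, Cox8c and Ndufa4l2 were higher in all 19 fits. Cox7a1 passed the filter on low counts only through the KO libraries, where it was high. With the filter of 1 CPM in 4 libraries, Cox7a1, Cox8c and Ndufa4l2 passed only because of their KO libraries. Calls in such fits add no support for these rises. With library size only 6 members were higher, where 40.2% of all genes were. The shares of all genes that were lower or higher in all 19 fits were not computed.

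Other genes of the pathway did not share one direction. Of 12 tested subunits encoded by mitochondrial DNA, 1 was lower and 2 were higher, where 24.1% and 31.2% of all tested genes were. Mt-Co1, the catalytic subunit of complex IV, fell from 1616 ± 399.6 to 944.1 ± 140.0 CPM. Mt-Nd2 (180.3 to 251.6 CPM) and mt-Nd3 (3.23 to 5.29 CPM) of complex I were higher with groups that overlapped. Levels of these transcripts were very uneven. Mt-Co2, mt-Atp6 and mt-Nd4l averaged 0.84, 0.86 and 0.39 CPM in control and 0.64, 0.66 and 0.80 CPM in KO. The cause of this unevenness was not tested. Both cytochrome c genes were lower: Cycs, the somatic form, from 170.6 ± 9.10 to 116.3 ± 3.37 CPM, and Cyct, the testis form, from 8.96 ± 1.90 to 2.81 ± 0.89 CPM (log2 fold changes -0.55 and -1.65). Of 5 tested subunits that the name rule does not match, 2 were lower, Ndufab1 and 2010107E04Rik (log2 fold changes -0.46 and -0.63). Usmg5 and Atpif1 did not pass. The 1 that was higher was Cyc1, cytochrome c1 of complex III. Cyc1 stood at 15.8 ± 0.92 CPM in KO against 9.05 ± 0.29 CPM in control (log2 fold change 0.80, edgeR adjusted p = 0.000377). Its rise without overlap stood beside that of Uqcrc1 in the same complex.

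Of 47 tested assembly factors, 21 were lower and 8 were higher, or 12 and 12 with library size only. Of all tested genes 24.1% were lower and 31.2% were higher, or 13.6% and 40.2% with library size only. Sdhaf1, which inserts iron-sulfur clusters into Sdhb, was 2.56-fold lower, and Cox15, needed for the heme A of complex IV, was 3.48-fold higher. Of 13 citric acid cycle enzymes 6 were lower and 1 was higher, or 3 and 3 with library size only.

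Among 11 tested regulators of respiratory gene transcription 4 were higher and 2 were lower, where 31.2% and 24.1% of all tested genes were. The 2 lower were Polrmt (log2 fold change -1.36, edgeR adjusted p = 0.0117), with groups that overlapped, and Tfb1m (-0.44, edgeR adjusted p = 0.00574), without overlap. The 4 higher were Gabpa, Yy1, Ppargc1a and Tfam. Gabpa, the DNA-binding subunit of GA-binding protein, measured 4.86, 2.76, 3.47 and 1.24 CPM in control and 19.0, 18.8, 17.9 and 22.7 CPM in KO. Yy1 measured 8.31, 6.12, 5.85 and 5.53 CPM in control and 24.3, 21.9, 32.9 and 34.1 CPM in KO. Gabpa and Yy1 both rose without overlap, with log2 fold changes of 2.62 ± 0.30 and 2.12 ± 0.20 (edgeR adjusted p = 1.92e-05 and 4.36e-06). Nrf1 stood at 254.3 CPM in control and 235.7 CPM in KO and did not pass.

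Promoters of these genes are known for sites of NRF1, ETS factors such as GABPA, and YY1, and the windows from 250 bases before to 50 bases after the RefSeq start (GRCm38.p6) were searched for them on both strands. RefSeq windows were matched for 70 of the 86 members, of which 67 were tested protein-coding genes. The genes set beside them were all genes with a window, not only tested protein-coding genes, so the sets are unlike. The part of this in the shares below was not tested. The NRF1 letters GCGCATGC were present in 10 of 67 members (14.9%) and in 3.05% of all 27025 genes with a window, the ETS letters CCGGAAG in 16 (23.9%) and 9.93%, the YY1 letters AAGATGGCG in 8 (11.9%) and 1.64%, and TATAAA in 5 (7.46%) and 15.7%. Windows of several members are shown with the NRF1 letters, or their reverse complement, in capitals, since they belong to members of all 5 complexes, and to the upregulated Uqcrc1 as well as to members that were lower.

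Ndufa6 (chr15:82354356-82354385, reverse strand): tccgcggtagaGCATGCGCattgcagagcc
Ndufa8 (chr2:36049328-36049357, reverse strand): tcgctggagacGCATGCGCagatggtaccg
Sdhb (chr4:140961206-140961235, forward strand): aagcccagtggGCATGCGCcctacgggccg
Uqcrc1 (chr9:108936667-108936696, forward strand): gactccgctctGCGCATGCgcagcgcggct
Cox6a1 (chr5:115349102-115349131, reverse strand): acaggaacgggGCGCATGCgcgctctcgct
Atp5k (chr5:108434431-108434460, reverse strand): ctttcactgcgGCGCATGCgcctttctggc

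In Uqcrc1 the letters begin 30 bases after the start, and in Sdhb 54 bases before it. Of the 10 members with the NRF1 letters 6 were lower, 1 was higher and 3 did not pass, with a median log2 fold change of -0.64, beside -0.50 for the 57 without. With the ETS letters 11 of 16 members were lower and without them 29 of 51. With the YY1 letters 4 of 8 were lower and without them 36 of 59. Of all tested genes 24.1% were lower and 31.2% higher, and these shares were not split by the letters. Atp5e holds the ETS letters on the other strand, shown in capitals.

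Atp5e (chr2:174464185-174464214, reverse strand): tacggccacagCTTCCGGtagccgctcggc

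The transcripts of the members are short and have short 3′UTRs. The median length of the reference transcript was 823.5 bases for 82 protein-coding members and 2885 for all 15453 tested protein-coding genes, and the median 3′UTR was 176.5 and 937 bases. The letters TTTTAT, the core of the cytoplasmic polyadenylation element that times translation in oocytes, were present in the 3′UTR of 14 of 82 members (17.1%) and of 53.1% of 14964 genes. In 3′UTRs of 300 to under 1000 bases the shares were 38.9% of 18 members and 40.3% of genes, and in those of 100 to under 300 bases they were 9.76% of 41 members and 16.6% of genes. Of the 14 members with the element 11 were lower, and of the 68 without it 36 were lower and 4 higher. The median log2 fold changes were close, at -0.53 with the element and -0.45 without it. Of all tested genes 24.1% were lower and 31.2% higher, and these shares were not split by the element. The letters TGTAAATA were present in 4 members (4.88%) and 11.2% of genes, and ATTTA in 35 (42.7%) and 66.4%. Per kilobase of 3′UTR the order was the other way, with 0.123 TGTAAATA in members against 0.0877 in genes and 2.09 ATTTA against 1.87, while TTTTAT stood at 0.584 against 1.01. The last elements of Atp5s and Cox6a2 had only 35 and 46 bases after them. Both members did not pass, with log2 fold changes of 0.20 and 0.087. Elements near the transcript's end are shown only for some members that were lower, with the letters in capitals.

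Ndufc2 (chr7:97407713-97407742, forward strand): atattttctgagTTTTATgggattttctgt
Ndufs4 (chr13:114287835-114287864, reverse strand): ccaatggagatcTTTTATtcttaggaaata
Cox5a (chr9:57532330-57532359, forward strand): tgcctggaaatgTTTTATttgaacaaattt

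After the element 72, 52 and 79 bases of the 3′UTR follow. Ndufc2 fell from 48.5 ± 10.04 to 25.5 ± 4.99 CPM and Ndufs4 from 60.5 ± 3.69 to 43.0 ± 4.27 CPM, both without overlap between the groups.

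The members lie on 19 chromosomes, and 20 of 82 (24.4%) share their start with a protein-coding gene on the other strand within 1000 bases, against 9.78% of all tested protein-coding genes. Of the 20 members 14 were lower, and of their 19 tested partners 6 were lower, 6 were higher and 7 did not pass. Of all tested genes 24.1% were lower and 31.2% were higher, and of all 83 tested members 56.6% were lower. Ndufs1 and its partner Eef1b2, an elongation factor subunit, start 3 bases apart. Eef1b2 fell from 93.2 to 53.4 CPM (log2 fold change -0.80), while Ndufs1 did not pass. Ndufb11 and Rbm10, a splicing factor, also start 3 bases apart, and Rbm10 rose from 4.14 to 15.8 CPM (log2 fold change 1.93) while Ndufb11 did not pass. Sdhd and Timm8b, an intermembrane space chaperone of mitochondrial import, were both lower, at log2 fold changes of -0.56 and -0.66.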

How the data were processed

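RNA of GV oocytes was measured in 8 libraries, 4 per group, grouped by the genotype labels. Per the labels, ribosomal RNA was removed with a stranded total RNA kit, and the paper also describes its depletion but names a stranded kit for mRNA. The authors mapped read pairs to GRCm38 with STAR 2.6.1d within nf-core/rnaseq. They deposited raw counts per gene for 46078 genes, without normalization or pooling. The counting tool, annotation and strand setting are not given in the sources used here. The submitters' processing notes also name edgeR 3.11. Sample columns left unused numbered 0.

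Genes with at least 0.2 CPM in at least 2 libraries were tested over the whole table (19241 genes) in R 4.3.3 with edgeR 4.0.16 (TMM, quasi-likelihood test, Benjamini-Hochberg), at an FDR of 0.05 and, for upregulated and downregulated genes, a fold change of 2. SE values are the estimate divided by the square root of F. CPM values are counts scaled by the TMM-adjusted library size, and FPKM values divide them by the length of 1 reference transcript per gene of GENCODE vM21, in which 85 of the 86 members were found. DESeq2 1.42.0, edgeR's exact test, 4 other scalings, 2 other filters, a replicate block, 2 other lists of members and libraries left out served as alternatives. The quasi-likelihood test, the exact test and DESeq2 were each run on simulated data with their default scaling. The other scalings, the filters, the block and the fits with libraries left out were not. Python 3.11.15, pandas 2.3.3 and matplotlib 3.10.9 were used for sequences and figures.

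The members and gene lists were chosen with earlier results of these data known. Named members were those past the FDR and 2-fold, the 3 largest rises and 3 largest falls past the FDR at 1 CPM or more, fixed core subunits and isoform sets, and the highest FPKM in control of each complex, of which 1 is not reported here. Other genes named with values were chosen after their values were seen.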

Additional observations from a re-analysis of the deposited data

Results flagged for a closer look

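In each group of 4 libraries, a value was picked out when its gap to the nearest other library exceeded Dixon's 95% critical share of the group's range. Over 70 groups (34 named members and their sum, in control and KO) this marked 8 values, where chance marks about 1 in 20 groups, or 3.5. Of the 8, 5 were in control replicate 1. There Ndufv1 measured 57.51 CPM against 121 to 124.9 CPM in the other controls, Cox4i1 94.37 against 185.6 to 193.2 CPM, Cox6a1 33.3 against 57.02 to 61.72 CPM and Cox6c 102.9 against 144.8 to 152.7 CPM, while Atp5b stood above the others at 293.3 against 250.7 to 256.6 CPM. Cox7a1 measured 0.801 CPM in control replicate 4 against 0.0267 to 0.148 CPM, and Cox7a2l 174.4 CPM in control replicate 3 against 160.2 to 162.3 CPM. The summed level of the members was 3764 CPM in KO replicate 4 against 4641 to 4794 CPM in the other KO libraries.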

How the results depend on the processing

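Of 83 members tested, 47 were lower and 4 higher, 2 of them downregulated and 4 upregulated at least 2-fold, and the median log2 fold change was -0.495. The lower count fell to 12 with library size only and to 17 with TMM on genes of at least 10 CPM, which is 14.5% and 20.5% of the members where 13.6% and 14.9% of all genes were lower. The downregulated count was 1 under both, with upper quartile scaling and with a filter of 1 CPM in 4 libraries. Among subunits only, without the restricted isoforms, 1 member was higher and 1 upregulated. The summed level was 85.16% of control with library size only against 70.27%. Leaving out 1 library at a time gave 35 to 59 lower, 4 to 4 higher, 1 to 13 downregulated and 4 to 4 upregulated members and a median of -0.563 to -0.428. The 13 came without control replicate 1. The cause of these shifts was not tested.

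With the replicate number as a block, 40 members were lower, 4 higher, 3 downregulated and 4 upregulated, and the median was -0.496. The numbers do not pair the libraries: deviations of same-numbered libraries correlated at -0.072, -0.042, 0.11 and -0.121.

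Signs reversed in members that did not pass with TMM scaling on all 8 libraries. Cox6c was at 0.232 with library size only, 0.192 with TMM on genes of at least 10 CPM, 0.0517 with upper quartile and 0.0242 with the stricter filter, and between -0.161 (without control replicate 1) and 0.0484 (without KO replicate 4) with 1 library left out. With library size only Ndufb11 was at 0.0698, Ndufa4 at 0.0918 and Cox6b1 at 0.0188, and with TMM restricted to 10 CPM or more Ndufb11 was at 0.0287 and Ndufa4 at 0.05999. Cox6a2 ranged from -0.139 (without control replicate 1) to 0.314 (without KO replicate 4). Depth limits Cox7a1, Cox7b2 and Cox4i2, where 3 counts come to up to 0.326 CPM.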

Other observations

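Some members outside the named ones were lower without overlap between the groups. Ndufb5, a complex I accessory subunit, fell from 66.4 ± 6.57 to 36.8 ± 6.42 CPM (log2 fold change -0.86), and Atp5c1, the gamma subunit of ATP synthase, from 86.4 ± 7.52 to 51.3 ± 8.84 CPM (-0.75). Cox5b, a zinc-binding subunit of complex IV, fell from 47.4 ± 4.93 to 29.1 ± 3.52 CPM (-0.70). Uqcrb, a complex III subunit, stood at 30.8 ± 4.47 CPM in control and 30.4 ± 3.08 CPM in KO. Of the 42 members with a GC content at or above the median 21 were lower and 3 higher. Of the 41 below it 26 were lower and 1 higher. Among all tested genes, not split by GC content, 24.1% were lower and 31.2% higher.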
